A study of Rattus norvegicus with 12 samples.

Results

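Hycc2 and Asap2 are genes of membrane lipid signalling and membrane traffic whose RNA was measured here in rat liver, Hycc2 at a higher and Asap2 at a lower level in rats fed the edible brown seaweed wakame. They are 2 of the 14217 genes that the platform's annotation names by a single symbol. The members were taken by symbol, which gave 5 probe sets, the groups of short probes that an Affymetrix array aims at a transcript. Asap2 has 1 probe set and Hycc2 has 4. A probe set whose standard deviation (SD) over the 12 arrays is at most 0.01 log2 counts as unmeasured and is called flat. By that limit 2 of the 5 probe sets were measured, 1 for each gene, and 3 of the 4 of Hycc2 were flat.

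The livers came from male Sprague Dawley rats that were 9 weeks old when sampled, and the labels name no genetic change or drug. All rats ate a purified casein and corn starch diet (AIN-93G) for 28 days, either plain (control), with 0.1% wakame powder (low) or with 1% wakame powder (high). Each diet had 4 arrays, 1 per animal, and the values are expression values as deposited, read as log2 from their range. Each diet was fed to 6 rats housed 3 to a cage, so a diet and its cages cannot be told apart. RNA came from whole liver tissue, in which fewer cells of a type and less RNA per cell cannot be told apart.

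Hycc2, also known as Fam126b, is a close relative of Hycc1 (hyccin). Hyccins bind the TTC7 proteins and hold the lipid kinase PI4KA in a complex that EFR3 anchors at the plasma membrane, where the kinase makes phosphatidylinositol 4-phosphate (PI4P), the precursor of PI(4,5)P2. Asap2 is a GTPase-activating protein with SH3, ankyrin repeat and PH domains. It turns off Arf GTPases, which recruit coats and lipid enzymes to membranes, and it binds the tyrosine kinases Src and Pyk2. The activity of this family towards Arf depends on PI(4,5)P2.

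The promoters of both genes are shown because the RNAs of these genes differed between diets in opposite directions. They are the bases before the start site in RefSeq's promoter table of the rat assembly GRCr8, 5′ to 3′, with capitals marking matches on either strand to the CCAAT box (CCAAT), the GC box (GGGCGG) and the E-box (CACGTG). For Hycc2 (chr9:67623354-67623547, minus strand) 194 of 250 bases are printed, since the last 56 lie inside the outer bounds of the gene in RefSeq's gene table. A separate stretch of 30 bases from within those 56 (chr9:67623319-67623348, minus strand) holds its E-box. For Asap2 (chr6:46386355-46386604, plus strand) all 250 bases are printed.
Hycc2 promoter: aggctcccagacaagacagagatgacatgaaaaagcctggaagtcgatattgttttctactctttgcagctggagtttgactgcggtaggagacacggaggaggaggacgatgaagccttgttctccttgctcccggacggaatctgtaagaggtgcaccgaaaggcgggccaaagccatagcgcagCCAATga
Hycc2 E-box: gttgttattaagCACGTGgacccactcaat
Asap2 promoter: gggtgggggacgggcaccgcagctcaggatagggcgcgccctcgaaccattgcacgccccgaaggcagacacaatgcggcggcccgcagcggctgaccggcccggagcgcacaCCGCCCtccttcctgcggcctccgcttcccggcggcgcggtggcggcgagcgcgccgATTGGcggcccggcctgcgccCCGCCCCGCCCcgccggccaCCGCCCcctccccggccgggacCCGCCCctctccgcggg

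The Hycc2 window of 250 bases had a G and C content of 51.6%, close to the median of 51.2% over 33469 rat promoter windows of the same length, and held 11 CG pairs, against a median of 5. The Asap2 window had a G and C content of 80.8%, higher than in 99.1% of those windows, and held 39 CG pairs, more than in 98.6%. Counted back from −1, the base before the start in the promoter table, Hycc2 held 1 CCAAT box at −63 to −59 and 1 E-box at −39 to −34. This E-box lies inside the outer bounds of the gene in RefSeq's gene table. Asap2 held 1 CCAAT box on the opposite strand at −80 to −76 and 5 GC boxes on the opposite strand between −137 and −12, of which a pair share 1 base. Of all windows, 34.0% held a CCAAT box, 30.5% a GC box and 5.59% an E-box. The other letters searched were TATAAA (in 12.9% of windows), TGACGTCA (1.59%), AGGTCA (14.1%), TTCNNNGAA (7.67%) and TGANTCA (6.34%), and neither window held any of them. A match is a description of the letters and was not tested for binding.

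Hycc2 lay higher in the 8 measured rats fed wakame than in any of the 4 measured control rats. Taken alone, the high diet lay above all controls in 5.22% of the 3240 varying probe sets, and the low diet in 2.50%. The share that did so under both diets was not counted. The varying probe set of Hycc2, 1382818_at, read 8.78, 8.56, 8.67 and 8.61 log2 on control arrays 1 to 4. On the low arrays it read 9.29, 9.29, 9.55 and 9.48. On the high arrays it read 9.95, 9.45, 9.39 and 9.69. The lowest value under either wakame diet was 0.50 log2 above the highest control, while the low and high arrays overlapped, with high 2 and high 3 below low 3 and low 4. The control mean was 8.65 ± 0.10, the low mean 9.40 ± 0.13 and the high mean 9.62 ± 0.26 (SD, n = 4), so the spread was widest in the high group.

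The difference of mean log2 values for Hycc2 was 0.97 ± 0.12 between high and control (SE of the fit, n = 4 per diet), a 1.96-fold higher level on the linear scale. Between low and control it was 0.75 ± 0.12, or 1.68-fold. The low diet showed 77.1% of the log2 difference seen with the high diet, which held 10 times as much seaweed. Hycc2 was selected on both differences, and they share the 4 control arrays, so this share is a description only. Between high and low the difference was 0.22 ± 0.12, with a 95% interval from −0.05 to 0.49, so these arrays place the high diet anywhere from slightly below to 0.49 log2 above the low diet.

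Asap2 ran the other way, and lay lower in the 8 measured rats fed wakame than in any of the 4 measured control rats. Taken alone, the high diet lay below all controls in 6.05% of varying probe sets, and the low diet in 3.36%. Here too the share under both diets was not counted. The probe set of Asap2, 1382330_at, read 8.81, 8.95, 8.81 and 8.85 log2 on control arrays 1 to 4. On the low arrays it read 8.46, 8.44, 8.62 and 8.48. On the high arrays it read 8.33, 8.45, 8.47 and 8.38. The highest low array, low 3, was 0.20 log2 below the lowest control, and the highest high array was 0.34 below it. Low and high overlapped by 0.03, since high 2 and high 3 lay level with low 1 and low 2. The control mean was 8.86 ± 0.06, the low mean 8.50 ± 0.08 and the high mean 8.41 ± 0.06 (SD, n = 4).

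For Asap2 the difference of mean log2 values was −0.45 ± 0.06 between high and control (SE, n = 4 per diet), a 1.37-fold lower level. Between low and control it was −0.36 ± 0.06, or 1.28-fold lower, which is 79.3% of the log2 difference with the high diet. As for Hycc2, this share is a description only. Between high and low it was −0.09 ± 0.06, with a 95% interval from −0.23 to 0.04. The difference was smaller than that of Hycc2 on the log2 scale, and the spread around it was narrow. The SD within diets was 0.07 log2 for Asap2, smaller than in all but 8.98% of the 3240 varying probe sets, and 0.18 for Hycc2, against a median of 0.21.

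**Figure D1:**
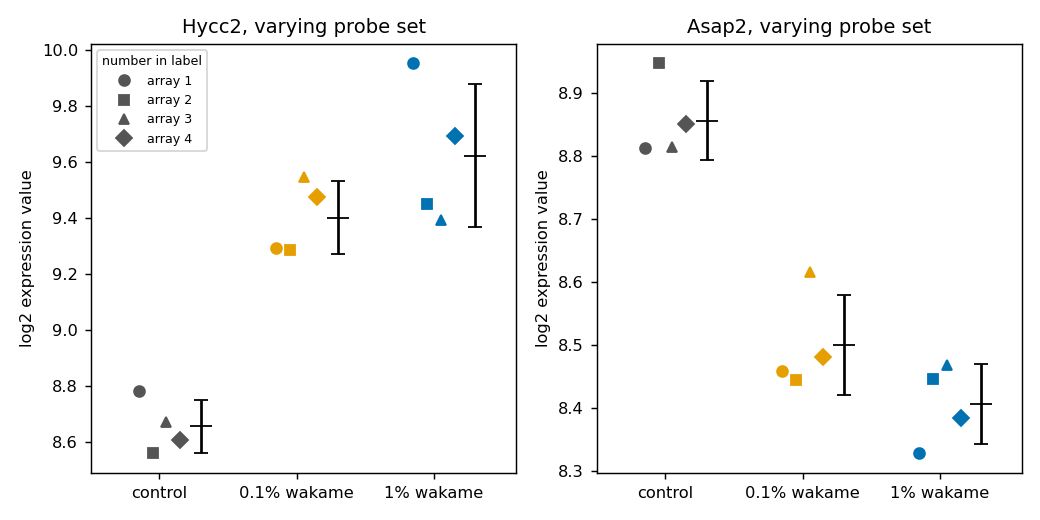
Log2 expression values of the varying probe sets of Hycc2 (left) and Asap2 (right) by diet, 1 point per rat with the marker giving the number in the label, and the mean with SD (n = 4) as a black bar. All 8 wakame arrays lie above the controls for Hycc2 and below them for Asap2, and the low and high arrays overlap in both panels.

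These genes were selected on their differences from control under both wakame diets in these same arrays, so the differences from control are a description and no test of them is offered as support. In the limma fit over the 3240 varying probe sets both genes passed an adjusted p of 0.05 (Benjamini-Hochberg) between high and control, where 1.67% of varying probe sets passed. Neither passed between low and control (limma adjusted p = 0.0778 for both), where 0.0617% passed. At that threshold they are therefore not called responders to both doses. A missed threshold does not show that the low diet left them level. By unadjusted p in that comparison Hycc2 was number 3 and Asap2 number 6 of 3240. The 2 probe sets that did pass in both comparisons have no gene named here. They are 1391407_at, at −2.55 log2 in high and −1.64 in low against control, and 1391718_at, at −2.26 and −1.76. Both comparisons share the 4 control arrays, so a value in one is no separate evidence for the other. Groups that do not overlap occurred in 11.3% of varying probe sets between high and control, in 5.86% between low and control and in 3.77% between high and low.

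The other 3 probe sets of Hycc2 gave no measured change in either direction. They stood at 6.14 log2 (1388548_at), 6.62 (1392614_at) and 7.15 (1397259_at) on all 12 arrays, with an SD of at most 2.4e-09. The median of all values in the table was 6.59, so 1 of the 3 lay below it. How such flat values arose is not given in the sources used here, and a flat value does not show that the RNA was level. Flat companions were common. Of 875 genes with several probe sets of which at least 1 varied, 710 (81.1%) also had a flat one. Varying probe sets made up 33.0% of those with a mean from 8 to 10 log2, where the measured probe sets of both genes lie, and 4.12% of those from 6 to 8. The higher level of Hycc2 under wakame therefore rests on 1 probe set of 4, and the lower level of Asap2 on the single one it has.

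**Figure D2:**
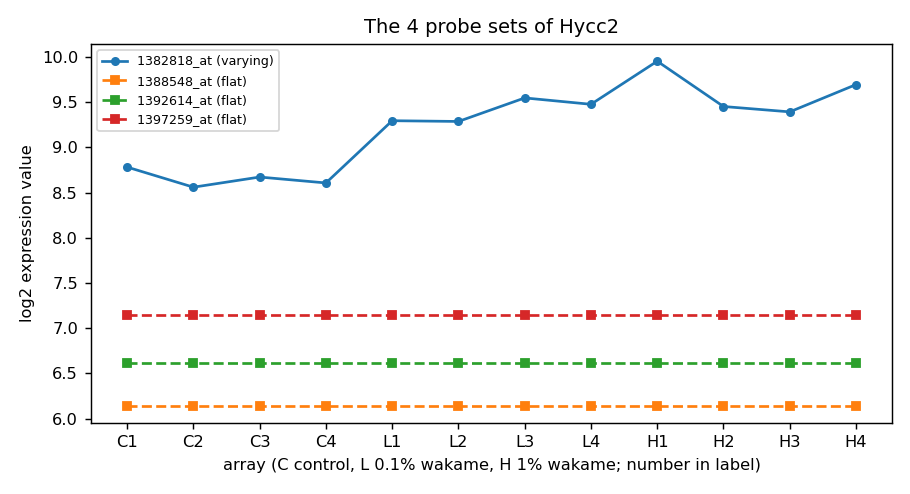
Log2 expression values of the 4 probe sets of Hycc2 on each of the 12 arrays, with C for control, L for 0.1% wakame and H for 1% wakame. The varying probe set steps up between the control and wakame arrays, and the 3 flat ones hold 6.14, 6.62 and 7.15 throughout.

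The size of these differences was followed over single arrays and settings as a description, with no support drawn from it, since the genes were selected on the same arrays. In 12 fits that each dropped 1 array, the difference between high and control ran from 0.86 to 1.05 log2 for Hycc2 and from −0.47 to −0.42 for Asap2. The difference between low and control ran from 0.70 to 0.79 and from −0.40 to −0.33. For each comparison 8 of the 12 fits dropped an array of the diets compared, and the others could not move the difference. The 9 other settings of the analysis gave 0.97 to 1.06 and −0.45 to −0.42 for high, and 0.75 to 0.77 and −0.36 to −0.32 for low. Among these settings, only quantile normalization, median centring of arrays and the Gapdh integrity measure as a covariate could move a difference of means. The others gave the same differences by design. Hycc2 missed the threshold for high against control in the limma fit over all 31042 probe sets, flat ones included (adjusted p = 0.0604), and Asap2 missed it with the Gapdh integrity measure in the limma fit (adjusted p = 0.0983). Between low and control Hycc2 passed in 2 of the 12 limma fits with an array left out, those without high 1 (adjusted p = 0.0171) and without high 3 (0.0474), and Asap2 in none (0.0637 to 0.259). Both passing fits dropped an array outside this comparison, so the difference stayed at 0.75 while the SE of the fit was smaller. In the 8 limma fits without a low or control array Hycc2 did not pass (adjusted p = 0.114 to 0.246).

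**Figure D3:**
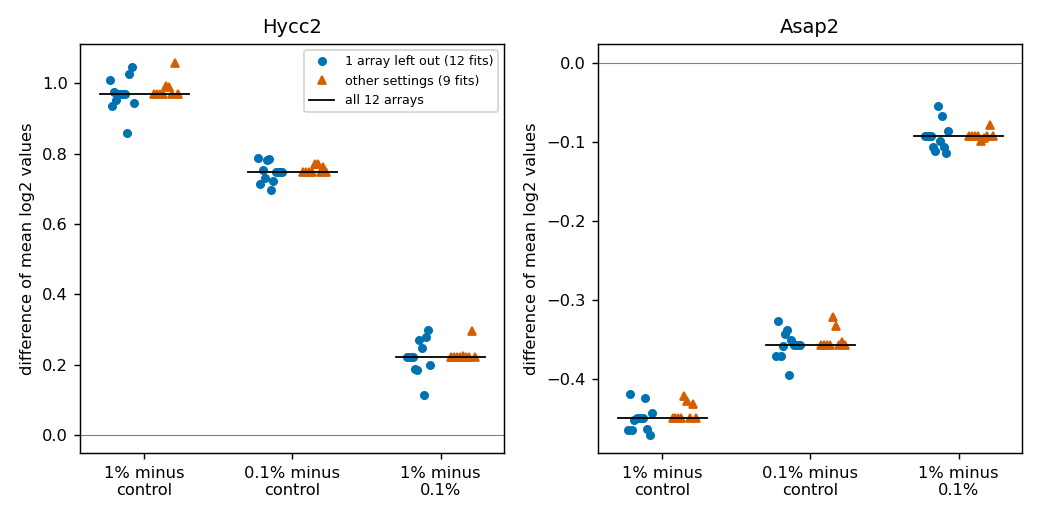
Differences of mean log2 values for Hycc2 (left) and Asap2 (right) in the 3 comparisons of diets, with 12 fits that each leave out 1 array (circles), 9 other settings (triangles) and the fit on all 12 arrays (line). Every difference from control keeps its side of 0, from 0.70 to 1.06 for Hycc2 and from −0.47 to −0.32 for Asap2. Settings that change only the spread or the probe sets tested cannot move a difference. Nor can fits without an array of the diet not compared.

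RNA integrity and cell type markers were set beside these values. For Gapdh, the 3-prime probe set minus the 5-prime one ran from 1.04 to 1.07 log2 in control, 0.96 to 1.20 in low and 1.04 to 1.42 in high. The same measure for Actb ran from 2.21 to 2.49, 2.07 to 2.43 and 2.28 to 2.43. With the Gapdh measure as a covariate Hycc2 was at 1.06 and Asap2 at −0.43 between high and control. Hepatocyte markers were bright, and 4 of 8 varied. Their mean ran from 11.17 to 11.67 in control, 11.62 to 12.11 in low and 11.00 to 11.81 in high. These 4 did not move alike, so the mean pools unlike genes. Between high and control they were at −1.04 (Tat), 0.67 (Cyp2e1), 0.08 (Hnf4a) and 0.05 log2 (Apoa1). Between low and control they were at 0.77, 0.90, 0.23 and −0.03. The mean of the 4 of 8 stellate cell and fibroblast markers that vary ran from 7.75 to 8.08 in control, 7.63 to 8.18 in low and 7.78 to 8.36 in high. For Kupffer cells (4 of 8 varying) the ranges were 8.45 to 8.99, 8.55 to 9.05 and 8.56 to 8.90, and for endothelial cells (2 of 8) 9.08 to 9.50, 9.16 to 9.62 and 9.30 to 9.44. The means are over varying probe sets, so the endothelial mean counts Lyve1 by both of its probe sets beside that of Stab2. Of the other marker lists, lymphocytes had 1 of 6 varying, Ptprc, the general leukocyte gene CD45 (7.30 to 7.69, 7.20 to 7.76 and 7.07 to 7.81). Erythroid cells had 2 of 4 varying (8.83 to 9.48, 9.08 to 9.92 and 8.64 to 9.86) and cholangiocytes 0 of 6. Not all listed markers have a probe set with a single symbol. Those that do number 7 for hepatocytes, 8 for stellate cells and fibroblasts, and 6 each for Kupffer and endothelial cells. Lymphocytes and cholangiocytes have 5 each, and erythroid cells 2. All these ranges overlapped between diets, which with 4 arrays each does not show level means. In control, low and high the means were 1.05, 1.08 and 1.21 for Gapdh and 2.31, 2.25 and 2.38 for Actb. They were 11.42, 11.89 and 11.36 for hepatocyte, 7.84, 7.97 and 8.16 for stellate cell and fibroblast, and 8.69, 8.87 and 8.80 for Kupffer cell markers. Endothelial markers had 9.29, 9.37 and 9.36, Ptprc 7.49, 7.48 and 7.46, and erythroid markers 9.22, 9.50 and 9.31. Among rats of one diet, with diet means subtracted (Pearson over 12 arrays), Asap2 went with the erythroid markers (0.69) and the Actb measure (0.65). It went against the Kupffer cell markers (−0.52) and Ptprc (−0.46), the 1 varying gene of the lymphocyte list. Hycc2 went against the mean of the 4 hepatocyte markers (−0.61), and its other values lay between −0.35 and 0.36. The part of these measures in the results was not tested.

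The partners of Hycc2 in the PI4KA complex showed no change that passed. Of 7 genes listed, 6 have a probe set with a single symbol and 2 varied. Efr3a, a membrane anchor of the complex, had a mean of 8.89 ± 0.08 under control diet, 8.74 ± 0.14 under low and 8.74 ± 0.08 under high (SD, n = 4), and its groups overlapped. It differed by −0.16 ± 0.08 log2 between high and control (limma adjusted p = 0.311) and by −0.15 ± 0.08 between low and control (adjusted p = 0.525). Tmem150a, a membrane protein that modulates the complex, had means of 10.13 ± 0.12, 9.92 ± 0.10 and 10.22 ± 0.33, with differences of 0.09 ± 0.14 and −0.21 ± 0.14 (limma adjusted p = 0.803 and 0.642). The kinase Pi4ka was flat at 7.61, and the scaffold genes Ttc7a and Ttc7b were flat at 8.06 and 7.48. Efr3b, the second anchor, was flat at 6.19, as were 3 further probe sets of Efr3a. Hycc1 was not analysed here, so the response of its relative cannot be set beside that of Hycc2.

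Of 38 genes that make, turn over or carry PI4P and PI(4,5)P2, all have a probe set and 3 varied. None passed in any comparison, and 1 had an unadjusted p under 0.05, Osbpl3, a lipid transfer protein that binds phosphoinositides. Its brighter probe set (1384136_at) had a mean of 6.71 ± 0.19 under control diet, 6.63 ± 0.17 under low and 6.93 ± 0.24 under high, and differed by 0.31 ± 0.14 log2 between high and low (limma adjusted p = 0.729, unadjusted 0.0477). Cds1, which makes CDP-diacylglycerol for phosphoinositide synthesis, was at −0.02 ± 0.13 between high and control and −0.18 ± 0.13 between low and control. Pip4p2, a phosphatase of PI(4,5)P2, was at −0.08 ± 0.45 and −0.20 ± 0.45 by its brighter probe set.

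Among the other Arf GTPase-activating proteins, 21 of 22 listed have a probe set and 2 varied, and both lay higher under the high diet while Asap2 lay lower. Arfgap3, which acts on Arf at the Golgi, read 7.64, 7.93, 7.62 and 7.64 in control, 7.74, 7.92, 8.28 and 7.88 in low and 7.83, 8.14, 8.19 and 8.41 in high. Control 2 lay within the range of the high group. The difference between high and control was 0.44 ± 0.14 log2 (limma adjusted p = 0.152, unadjusted 0.0119). Asap3, the other family member with a varying probe set, read 7.12, 7.84, 7.92 and 7.29 in control, 7.64, 7.52, 7.82 and 7.66 in low and 7.91, 7.86, 7.96 and 7.99 in high. It was spread widely in control and tightly in high, and differed by 0.39 ± 0.16 (limma adjusted p = 0.243, unadjusted 0.0379). Neither passed the threshold, so no change is called for them. The 5 probe sets of Asap1, the remaining family member, were flat between 6.22 and 6.96.

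Arf GTPases and their exchange factors, 20 of 23 with a probe set, held 3 varying genes. Arf5, a Golgi Arf on which Asap2 acts, was at −0.0046 ± 0.096 between high and control and 0.0063 ± 0.096 between low and control. Arl1, of the trans-Golgi, was at 0.06 ± 0.07 and 0.02 ± 0.07. Arf4 was at −0.21 ± 0.25 and 0.11 ± 0.25, with low 3 at 11.61 where the other low arrays read 10.32 to 10.43. The plasma membrane Arf6 was flat at 8.17.

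Of 25 genes of Src, FAK and focal adhesions, all with a probe set, 4 varied. Bcar1, the adhesion scaffold p130Cas that Src phosphorylates, read 8.52, 8.87, 8.57 and 8.56 in control, 8.72, 8.58, 8.34 and 8.57 in low and 8.26, 8.35, 8.40 and 8.43 in high. The high group lay below all controls, by −0.27 ± 0.10 log2 between the means, and did not pass (limma adjusted p = 0.188, unadjusted 0.0195). The adhesion kinase Ilk and its partner Lims1 were at −0.0034 ± 0.044 and 0.01 ± 0.06 between high and control, and the small GTPase Rhou at 0.08 ± 0.13. The kinases Src, Ptk2 and Ptk2b, which is Pyk2, had only flat probe sets.

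Over the 5 lists, 110 of 115 genes have a probe set, 14 varied and 96 were flat throughout. With limma 0 of the 14 passed in any of the 3 comparisons, where 1.67%, 0.0617% and 0% of all varying probe sets passed between high and control, low and control, and high and low. At an unadjusted p under 0.05 there were 3 of 14, 0 and 1, against 18.5%, 11.5% and 6.76% of all varying probe sets. Between high and control 7 of 14 lay higher and 7 lower, with a median over 16 probe sets of 0.0034 log2, against −0.02 over all varying probe sets. At these background shares so few measured genes are likely to hold no call, so the count says nothing particular about them.

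**Figure D4:**
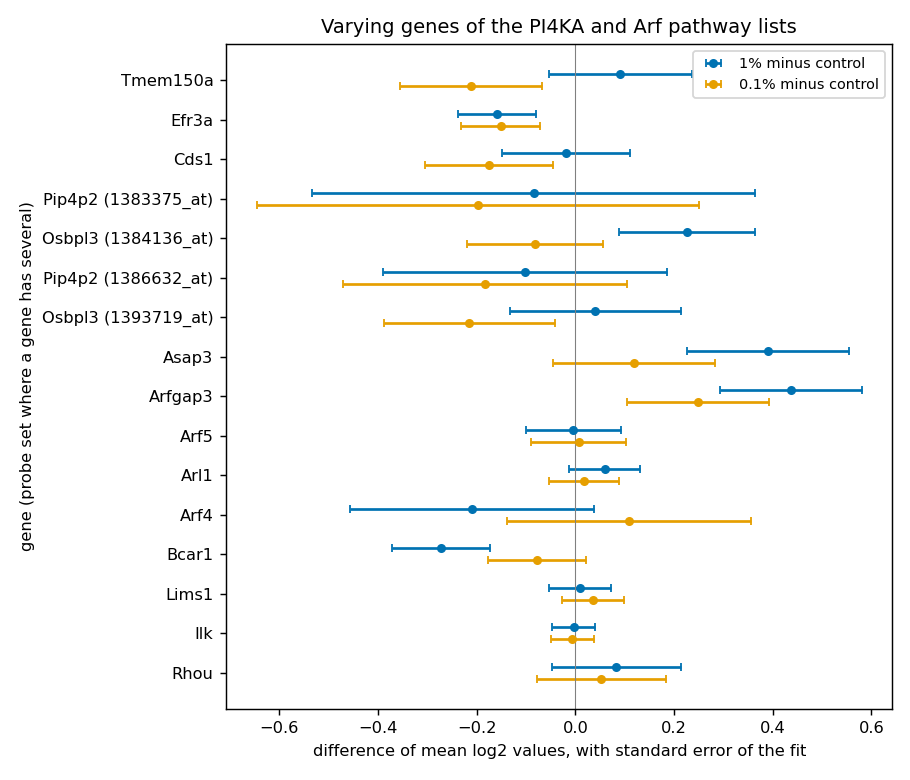
Differences of mean log2 values from control for the 14 varying genes (16 probe sets) of the 5 pathway lists, under 1% wakame and 0.1% wakame, with the SE of the fit as bars (n = 4 arrays per diet). Arfgap3 and Asap3 lie farthest to the right under 1% wakame, at 0.44 and 0.39, and Bcar1 farthest to the left, at −0.27, and none passed.

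The pattern over the 12 arrays was compared with that of every other gene with a varying probe set, by Pearson correlation. It serves as a measure of likeness only, since the arrays fall into diets and these genes were picked for their shift between diets. Hycc2 and Asap2 were each the most opposite gene to the other (Pearson −0.93, Spearman −0.78, over 12 arrays). After each diet's mean was subtracted, the correlation was −0.34 (Spearman −0.26), so most of the opposition lay between diets and little of it between rats of one diet.

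The genes most like Hycc2 were Shld2 (0.90), of a DNA end-protection complex, Baiap2l1 (0.88), which shapes membranes with actin, Slc49a4 (0.86), a lysosomal transporter, Ccdc6 (0.86) and Nr5a2 (0.85), the nuclear receptor LRH-1 of bile acid and lipid metabolism. Of these 5, Baiap2l1 had low and high means that lay closest together, with 7.89 ± 0.16 in control, 8.54 ± 0.23 in low and 8.60 ± 0.23 in high. Nr5a2 went from 8.90 ± 0.14 to 9.11 ± 0.24 and 9.50 ± 0.15. With diet means subtracted, Shld2 and Nr5a2 stayed alike (both 0.80), and Slc49a4 was at 0.22. Within diets the most alike were Mtss1 (0.84), a membrane-bending protein that binds PI(4,5)P2, the transcription factor Foxo3 (0.84) and Crebrf (0.83). Foxo3 differed by 0.10 log2 between high and control, so it followed Hycc2 among rats of one diet with little of its step between diets.

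The genes most like Asap2 were Psmc6 (0.92), a proteasome subunit, Hacd3 (0.91), of very long-chain fatty acid synthesis, Egln1 (0.91), the oxygen sensor PHD2, Cystm1 (0.89) and the mitotic cyclin Ccnb1 (0.89). Egln1 went from 8.20 ± 0.07 in control to 7.92 ± 0.13 in low and 7.88 ± 0.06 in high, a step between control and both wakame diets like that of Asap2. Besides each other, the genes most opposite were Smad1 (−0.90) and Ccnb1 (−0.89) for Hycc2, and Slc49a4 (−0.89) and the stress gene Gadd45b (−0.87) for Asap2. With diet means subtracted, Asap2 was most like the efflux transporter Abcg2 (0.88), Smim14 (0.81) and Arfgap3 (0.76). For Arfgap3 and Asap2 alike, control 2 was the highest control array and low 3 the highest low array.

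**Figure D5:**
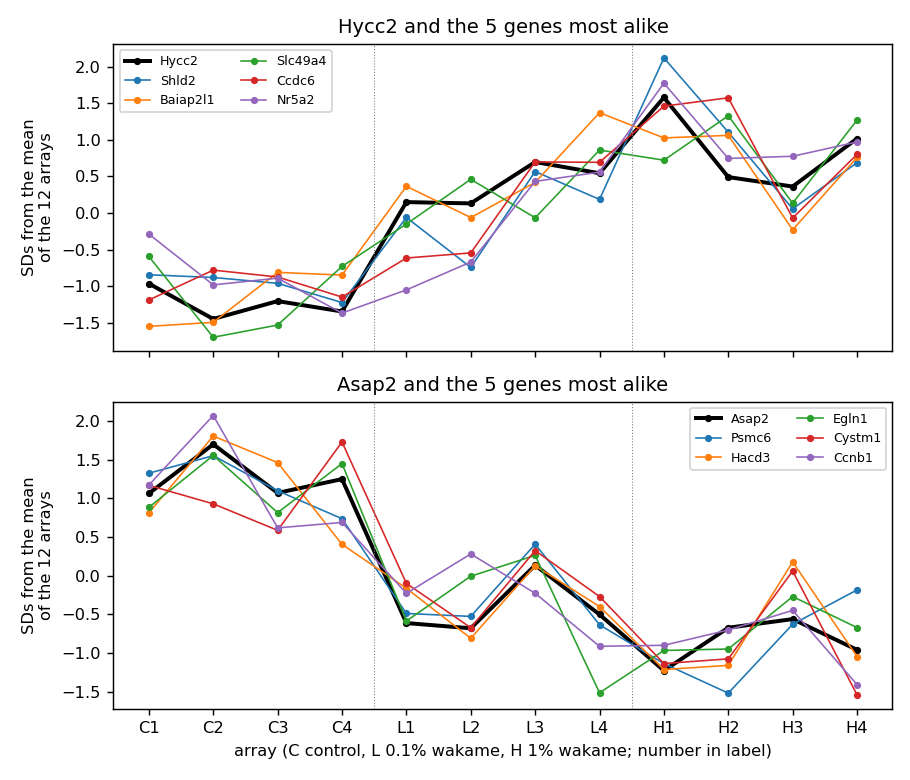
Profiles over the 12 arrays of Hycc2 (top) and Asap2 (bottom), in black, with the 5 genes most alike, each scaled to SDs from its own mean, with dotted lines between diets. The step lies between the control arrays and all wakame arrays for both members, and Nr5a2 and Ccdc6 lie higher again on most high arrays.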

How the data were processed

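Per the labels' protocols, liver was kept in RNAlater, and 100 ng of total RNA was labelled with a 3-prime amplification kit. The authors deposited a table of log2 values with 31099 probe sets and 12 arrays. Their range is that of log2 data, and no source used here states the scale. The submitters' processing notes name R 2.7.2; how values were normalized and summarised is not given in the sources used here. No depth or background signal was used here, so the number of arrays limits the precision.

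The 57 control probe sets were left out, and the 3240 varying of 31042 were fitted with limma 3.58.1 in R 4.3.3 (a mean per diet over all 12 arrays, trended variances, Benjamini-Hochberg over all 3240, threshold 0.05), which was tested on simulated data. Of 20832 probe sets with 1 symbol, 20764 had a gene identifier in RefSeq's GRCr8 table, and all symbols were the same there. Arrays of one diet correlated at 0.911 to 0.961. The members, lists and naming rule were chosen with earlier results of these data known. The rule names all probe sets of both genes, the genes most alike or opposite in pattern, and, in the 5 lists, those with the smallest p and the PI4KA complex and Asap family. Alternatives changed the filters, trend, normalization, samples, an RNA integrity covariate, a replicate block and single arrays.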

Additional observations from a re-analysis of the deposited data

Results flagged for a closer look

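Neither Hycc2 nor Asap2 had an array that stood apart from its diet. Over both members and the other genes named by list or likeness, 105 sets of 4 arrays were checked. In 7 of them (6.67%), all of other genes, an array stood apart. Its gap to the nearest other, divided by the whole range, was above Dixon's limit for 4 values, where chance gives about 5%. The ratio was 0.858 for Bcar1 in control 2 (8.87, others 8.52 to 8.57) and 0.92 for Arfgap3 in control 2 (7.93, others 7.62 to 7.64). It was 0.875 for Arl1 in control 1 (9.37, others 9.47 to 9.48). In low 3 it was 0.913 for Arf4 (11.61, others 10.32 to 10.43) and 0.86 for Psmc6 (7.81, others 7.66 to 7.68). In high 3 it was 0.879 for Hacd3 (7.95, others 7.47 to 7.53) and 0.876 for Gadd45b (6.65, others 7.00 to 7.05).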

How the results depend on the processing

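The 6 differences of Hycc2 and Asap2 kept their direction and moved by no more than the SD within diets under all 9 settings and all 12 fits without an array. Of the settings, only quantile normalization, median centring and the Gapdh covariate could move a difference of means. The others left it fixed by design, as did dropping an array of the diet not compared. Between high and low, the fits without an array gave 0.11 to 0.30 log2 for Hycc2 and −0.11 to −0.05 for Asap2; the ranges against control stand with the results. The count of genes of the 5 lists that passed was 0 in every setting and comparison. The count of 54 varying probe sets between high and control was 9 over all probe sets (of which 3 changed by more than 1e-06 log2), 28 with only the diets compared, 4 with the Gapdh covariate and 12 with the replicate block, and 7 to 49 with an array left out. It was 13, 8, 33 and 9 without control 1 to 4, 28 without low 1, 34 without high 3, and 7 and 11 without high 2 and high 4. The count of 2 between low and control was 5 over all probe sets (0 above 1e-06), 1 after quantile normalization or median centring, 0 with only these diets or the replicate block, and 0 to 8 with an array left out, with 8 without high 1. The count of 0 between high and low was 6 over all probe sets (0 above 1e-06) and 0 to 1 with an array left out. Arrays with the same number shared no pairing (correlation of deviations −0.22 to 0.13), and with the replicate block both genes passed between high and control and neither between low and control. No value has a background signal behind it, so the sizes at low levels are uncertain.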

Other observations

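Differences among rats of one diet were also set beside 3 genes that shifted with wakame, Bcl6, Nr1d1 and Onecut1, with each diet's mean subtracted (12 arrays, Pearson, with no test). Bcl6, a transcriptional repressor, had means of 6.22 ± 0.48, 8.62 ± 1.77 and 11.44 ± 0.88 under control, low and high (SD, n = 4). Its lowest high array (10.22) lay just above its highest low array (10.18), while in Hycc2 and Asap2 these diets overlapped. Of all varying probe sets, 3.77% had no overlap between high and low. Within diets Asap2 followed Bcl6 (0.73) and opposed the hepatocyte factor Onecut1 (−0.67). Its values for the erythroid markers (0.69) and the Actb 3-prime minus 5-prime difference (0.65) were of like size, so nothing here is particular to Bcl6 or Onecut1. Hycc2 followed neither (−0.02 and 0.28), and neither member followed the clock repressor Nr1d1 (0.17 for Hycc2 and 0.10 for Asap2).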
